A study of Mus musculus with 6 samples.

Results

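The genes described here are 10 genes of the contractile apparatus that myofibroblasts share with smooth muscle, namely *Acta2*, *Tagln*, *Cnn1*, *Cnn2*, *Myh11*, *Myl9*, *Tpm1*, *Tpm2*, *Lmod1* and *Synpo2*. They are defined by name, not by a threshold on measured values, and all 10 were found among the 34745 genes of the expression table. The data are 6 RNA-seq libraries of cardiac fibroblasts from the hearts of male mice operated on at 8 to 10 weeks of age, 3 from KDM5B-KO mice and 3 from their WT littermates. In both groups myocardial infarction (MI) was produced by tying off the left anterior descending coronary artery, and the cells were taken on Day 7, so there is no library from an uninjured heart. The knockout is a germline CRISPR/Cas9 deletion on a C57BL/6 background within the part of *Kdm5b*, which encodes a histone H3K4 demethylase, that codes for the JmjC domain, and it is therefore present in every cell of the animal. The labels do not say whether each library came from a separate mouse, so the p-values measure the spread between these libraries, which may be technical.

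When the heart is injured, resident fibroblasts become myofibroblasts, which assemble actin stress fibers, pull on the collagen matrix and stabilize the scar. The filaments are built from smooth muscle actin and tropomyosin, bear calponins and transgelin, and are pulled by myosin whose light chains are phosphorylated. Transcription of many of these genes depends on serum response factor (SRF), which binds CArG boxes, with cofactors of the myocardin family, and TGF-β is the best known inducer of the program.

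The totals were 12025403 to 15329427 counts per library, and the floor of 3 counts corresponds to 0.249 CPM in the smallest library, where CPM is the count relative to library size, TMM-normalized in the values that follow. The edgeR quasi-likelihood test was applied to 14084 genes with Benjamini-Hochberg adjustment, and changes are given as KO against WT on the log2 scale. KO and WT libraries were split along the leading principal component, which held 73.2% of the variance. *Kdm5b* itself, measured over the whole gene and not over the deleted part, was at 98.1, 107 and 105 CPM in KO and 108, 129 and 123 CPM in WT (log2 fold change -0.22, SE 0.07, adjusted p = 0.0574), and it passed the test in 3 of 15 alternatives, with the upper quartile, with the replicate block and without WT replicate 1. The mean *Kdm5b* level in KO was 86.1% of the WT mean. The paper reports that *Kdm5b* mRNA was nearly absent by Q-PCR in KDM5B-KO cardiac fibroblasts. No such near absence was seen over the whole gene in these libraries, and the reason for the difference was not tested. A value over the whole gene does not check the labels. Fibroblast identity was clear from its markers: the summed level of 18 fibroblast markers was 29608 to 34499 CPM in KO and 41024 to 43880 CPM in WT. The libraries also held transcripts used as markers of other cells. The summed level of 12 endothelial markers was 1515 to 2162 CPM in KO against 296 to 304 CPM in WT. The paper reads raised endothelial genes in KDM5B-deficient fibroblasts as a shift toward endothelial-like cells. Which cells carried these transcripts was not tested.

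The contractile genes were lower in KDM5B-KO fibroblasts. By edgeR 7 of the 10 were significantly lower, against 12.5% of all genes tested, and the median log2 fold change of the 10 was -0.42, against -0.02 for all genes tested. None of the 10 was higher, against 17.7% of all genes, and none was higher at an unadjusted p under 0.05 or by DESeq2 or limma. For 8 of the 10 every KO library lay below every WT library in TMM-normalized CPM, which was so for 22.4% of all genes. Most of the falls were moderate, to between 66.8% and 77.2% of the WT mean, and *Synpo2* fell the most, to 33.3%. The fibroblast markers were lower as well. The 18 fibroblast markers had a median of -0.41, and 15 of them fell. When the libraries were scaled so that these markers were equal, *Synpo2* alone among the 10 was called lower (-1.19, adjusted p = 0.00327 from edgeR), and the values of the other 9 lay between -0.17 and 0.21. That scaling moved the median of all genes by 0.41 and changed the numbers called from 2488 higher and 1760 lower to 8532 higher and 44 lower.

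**Figure D1:**
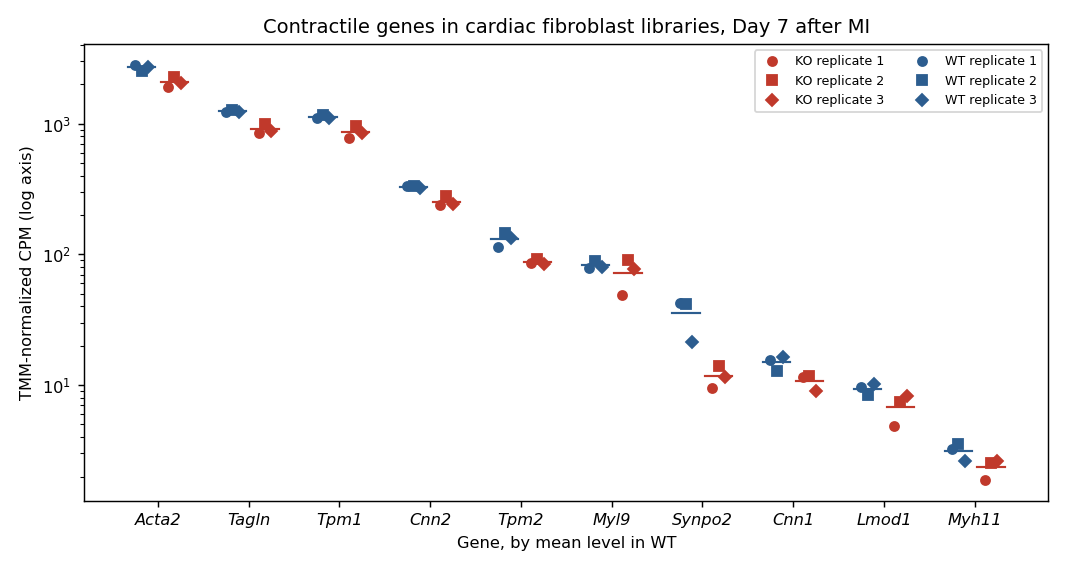
Level of each contractile gene in each library, as TMM-normalized CPM on a log axis, with WT in blue, KO in red, a marker shape for each replicate and a line at the group mean. KO lies wholly below WT for 8 of the 10 genes, all but *Myl9* and *Myh11*, and *Synpo2* shows the widest gap.

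The upstream sequences of these genes are shown first because CArG boxes are the feature best known to connect them. Of the 10 genes, 8 had a promoter entry in the RefSeq table (GRCm38.p6), all but *Tagln* and *Myh11*, which were not searched. The 250 bases before the RefSeq start were searched on both strands. These starts mostly differ from the ends of the gene coordinates given below, and the distances printed here count from the RefSeq start. A CArG box was present in 2 of the 8, *Cnn2* and *Myl9*, and in 1.47% of 32851 windows of the same length. A CArG-like run, with 1 G or C among its 6 interior bases, was present in *Acta2* and *Myl9* and in 7.24% of windows. In the lines below the run is in capitals with 10 bases on either side. The sites lie at chr19:34255438-34255467 and chr19:34255388-34255417 (minus strand), chr10:79988534-79988563 (plus strand), and chr2:156775293-156775322 and chr2:156775355-156775384 (plus strand), in the order printed.

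*Acta2*, CArG-like, first base 84 before the start: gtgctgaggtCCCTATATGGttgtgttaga

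*Acta2*, CArG-like, first base 34 before the start: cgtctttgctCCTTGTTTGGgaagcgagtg

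*Cnn2*, CArG box, first base 56 before the start: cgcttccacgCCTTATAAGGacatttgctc

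*Myl9*, CArG box, first base 161 before the start: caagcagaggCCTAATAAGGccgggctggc

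*Myl9*, CArG-like, first base 99 before the start: cattcttctgCCTTGTAAGGccgggcggcc

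The motif CATTCC, read on either strand, is known as the core of the MCAT element bound by TEAD factors. It was found in the windows of 3 of the 8 genes, *Acta2*, *Tpm1* and *Lmod1*, and in 12.6% of all windows. The *Tpm1* match, and most of the *Tpm1* and *Tpm2* windows, lie inside these genes by the coordinates given below. The windows of *Cnn1*, *Tpm2* and *Synpo2* held none of these runs. These matches describe the letters only, and no binding was measured. *Acta2* and *Cnn2* fell, whereas *Myl9*, which has a box and a CArG-like run, did not pass the test.

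*Acta2* (ENSMUSG00000035783, chr19:34241090-34255336 in mm10, minus strand) encodes smooth muscle α-actin, the protein by which myofibroblasts are recognized. Its level was 1920, 2278 and 2027 CPM in KO and 2817, 2535 and 2713 CPM in WT. The highest KO library stayed below the lowest WT library. The mean was 2075 ± 184 CPM in KO and 2688 ± 142 CPM in WT (SD, n = 3 each), a 1.30-fold difference (log2 fold change -0.37, SE 0.07, edgeR adjusted p = 0.00476). As in any bulk sample, fewer cells of a type and less RNA per cell cannot be told apart.

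The tropomyosins lie along the actin filament and regulate the access of myosin to it. *Tpm1* (ENSMUSG00000032366, chr9:67022590-67049406, minus strand) was at 771, 958 and 851 CPM in KO and 1108, 1167 and 1100 CPM in WT. *Tpm2* (ENSMUSG00000028464, chr4:43514711-43523765, minus strand) was at 85.6, 91.9 and 84.2 CPM in KO and 113, 145 and 134 CPM in WT. Both were lower in every KO library than in any WT library. The log2 fold change was -0.39 for *Tpm1* (SE 0.07, edgeR adjusted p = 0.00571) and -0.58 for *Tpm2* (SE 0.09, edgeR adjusted p = 0.00217). The ratio of *Tpm2* to *Tpm1* within a library was 28.5% to 33.0% in KO and 30.3% to 36.9% in WT, and these ranges overlapped (exact two-sided permutation p = 0.2). *Lmod1* (ENSMUSG00000048096, chr1:135324807-135368065, plus strand) encodes leiomodin, which nucleates new actin filaments in smooth muscle. It was at 4.91, 7.43 and 8.19 CPM in KO and 9.66, 8.33 and 10.2 CPM in WT. On this scale the groups did not overlap, but the highest KO and the lowest WT library were nearly equal. On the deposited FPKM scale they overlapped, with KO replicate 3 at 2.1 and WT replicate 2 at 2.08. With 60 to 143 counts per library, the change of -0.45 did not pass the test (95% interval -0.89 to -0.00, edgeR adjusted p = 0.118).

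Transgelin and the calponins bind along actin filaments and are used as markers of differentiated smooth muscle, calponin 2 being the more widely expressed form. *Tagln* (ENSMUSG00000032085, chr9:45929628-45936058, minus strand) was at 846, 1001 and 879 CPM in KO and 1232, 1271 and 1217 CPM in WT. *Cnn2* (ENSMUSG00000004665, chr10:79988584-79996062, plus strand) was at 240, 277 and 241 CPM in KO and 331, 332 and 321 CPM in WT. For both genes the WT libraries lay close together and the KO libraries were all lower. *Tagln* fell by 0.45 on the log2 scale (SE 0.06, edgeR adjusted p = 0.00139) and *Cnn2* by 0.38 (SE 0.06, edgeR adjusted p = 0.00289). *Tagln* shares 108 exonic bases with *Pcsk7* on the other strand, which had 3160 counts over the 6 libraries against 90663 for *Tagln*.

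*Cnn1* (ENSMUSG00000001349, chr9:22099281-22109630, plus strand) encodes calponin 1, a late marker of the smooth muscle phenotype, and was far less abundant than *Cnn2*. It was at 11.6, 11.7 and 8.96 CPM in KO and 15.5, 12.8 and 16.4 CPM in WT. The groups were apart by little, with 139 to 156 counts per KO library and 188 to 231 per WT library. The change was -0.47 (SE 0.15, edgeR adjusted p = 0.0411), and the call was lost in 9 of 15 alternative analyses, whose adjusted p ran from 0.0277 to 0.748. Among these, leaving out a single library gave 0.0314 to 0.125, and the call held only without WT replicate 2. The ratio of *Cnn1* to *Cnn2* was 4.58% to 5.96% in KO and 4.75% to 6.30% in WT (exact permutation p = 0.7).

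The motor genes of the group did not pass the test. *Myh11* (ENSMUSG00000018830, chr16:14194527-14291408, minus strand) encodes the myosin heavy chain of mature smooth muscle, which myofibroblasts largely lack. It was the least abundant of the 10, at 1.88, 2.55 and 2.64 CPM in KO and 3.22, 3.55 and 2.63 CPM in WT, or 23 to 52 counts per library. The groups overlapped (log2 fold change -0.40, 95% interval -0.90 to 0.10, edgeR adjusted p = 0.205). *Myl9* (ENSMUSG00000067818, chr2:156775420-156781658, plus strand) encodes the regulatory light chain through which myosin is switched on. It was at 48.8, 91.1 and 77.6 CPM in KO and 79.0, 89.0 and 79.9 CPM in WT. KO replicate 1 was low, and the other KO libraries were within or close to the WT range. The change was -0.19 (95% interval -0.63 to 0.25, edgeR adjusted p = 0.498), and without KO replicate 1 it was 0.03 (adjusted p = 0.814).

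*Synpo2* (ENSMUSG00000050315, chr3:123076519-123236149, minus strand) encodes synaptopodin 2, also called myopodin, an actin-bundling protein of the Z-disc and of stress fibers. It was at 9.42, 14.1 and 11.6 CPM in KO and 42.2, 42.0 and 21.5 CPM in WT. All WT libraries were above all KO libraries, but WT replicate 3 stood closer to the KO libraries than to the other WT libraries. *Synpo2* was 3.01-fold lower in KO (log2 fold change -1.59, SE 0.26, 95% interval -2.19 to -0.98, edgeR adjusted p = 0.00287), and was lower in 3 of 3 KO libraries. Without WT replicate 3 the change was -1.85 (adjusted p = 4.0e-04), and over all omissions of a single library it ran from -1.85 to -1.44. By limma on the log2(FPKM + 1) scale, which understates the change of a gene with so low an FPKM, it was -0.71 (adjusted p = 0.0118).

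**Figure D2:**
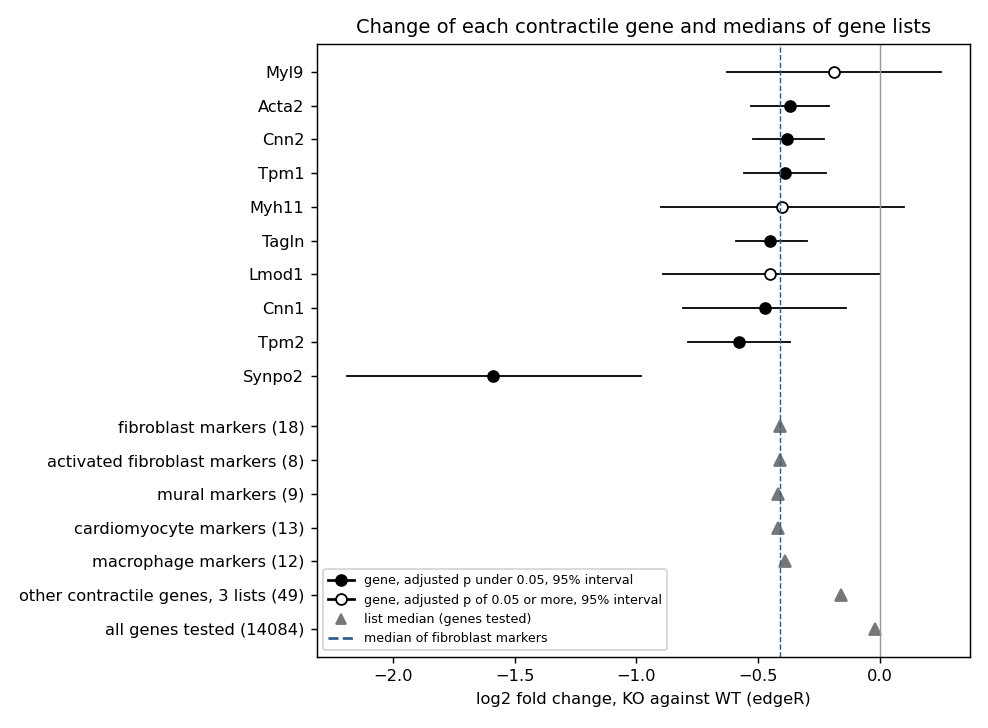
Log2 fold change of each contractile gene, KO against WT, with its 95% interval from edgeR, above the medians of gene lists as triangles (genes tested in parentheses); the endothelial list, at 2.64, is beyond the axis and not drawn. The dashed line marks the fibroblast median of -0.41, which lies inside the interval of 9 of the 10 genes and outside that of *Synpo2*.

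The KO libraries differed among themselves in the contractile genes. KO replicate 1 was the lowest KO library for 8 of the 10 genes and KO replicate 3 for the other 2. The summed level of the 10 genes was 3939, 4733 and 4191 CPM in KO and 5751, 5606 and 5616 CPM in WT. KO replicate 1 also had the highest endothelial sum, 2162 CPM, and the lowest fibroblast sum, 29608 CPM. The part of these values in the result was not tested. With any 1 library left out, 6 or 7 of the 10 genes were called lower.

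A ratio within a library does not depend on how libraries are scaled, so each gene was divided by *Col1a1*, the main collagen chain of fibroblasts. *Acta2* FPKM was 66.2%, 65.9% and 62.2% of *Col1a1* FPKM in KO and 69.6%, 55.3% and 60.9% in WT. These ranges overlapped, and the mean log2 ratio was 0.07 higher in KO (exact two-sided permutation p = 0.6). For 9 of the 10 genes the log2 ratio to *Col1a1* differed between groups by -0.13 to 0.21. *Synpo2* was the exception, at 0.0253%, 0.0318% and 0.0277% of *Col1a1* in KO and 0.0812%, 0.0715% and 0.0377% in WT, a log2 difference of -1.10. Divided by *Acta2*, *Synpo2* differed by -1.17. In both cases KO lay wholly below WT and the exact p was 0.1, the smallest that 3 against 3 allows, so that none of the 21 ratios could pass the threshold (adjusted p = 0.933 for both). The exact p of the other 19 ratios was 0.2 to 1.

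**Figure D3:**
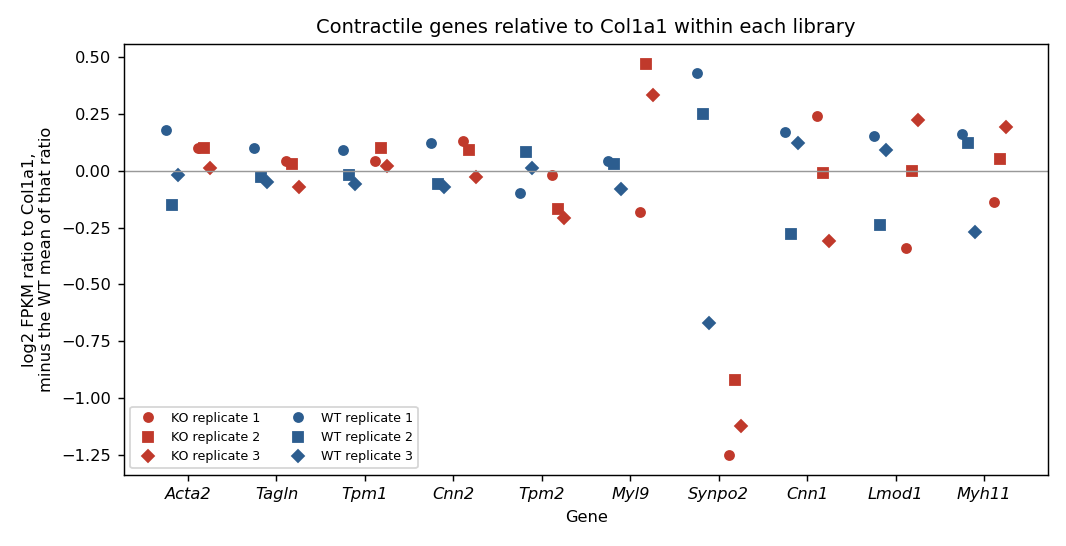
Log2 FPKM ratio of each contractile gene to *Col1a1* in each library, minus the WT mean of that ratio, with WT in blue and KO in red. The KO and WT points of 9 genes overlap around 0, whereas those of *Synpo2* are apart, with a difference of -1.10.

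Levels can be compared between genes only per length. On the deposited FPKM scale the order in WT was *Acta2* (1490 ± 82.7), *Tagln* (772 ± 15.7), *Cnn2* (111 ± 2.15), *Tpm1* (67.2 ± 2.04), *Myl9* (38.7 ± 2.49), *Tpm2* (23.2 ± 2.83), *Cnn1* (6.22 ± 0.787), *Lmod1* (2.35 ± 0.242), *Synpo2* (1.52 ± 0.513) and *Myh11* (0.466 ± 0.0687; mean FPKM ± SD, n = 3). The order in KO was the same, and all neighbours were apart in both groups. The stress fiber genes *Acta2* and *Tagln* thus stood far above *Cnn1*, *Lmod1* and *Myh11*. The length behind the FPKM changes part of this order. For 65.2% of the 10041 genes checked, those with at least 50 counts in every library, it equalled to within 1 base the sum of all distinct annotated exons, in which bases shared by overlapping exons are counted repeatedly. For *Tpm1*, a gene with many alternative exons, the length implied by the FPKM was 16538 bases, 2.55 times the 6485 bases of its merged exons. Per kilobase of merged exons *Tpm1* rather than *Cnn2* was the third gene, at 171 ± 5.19 against 132 ± 2.55 CPM per kilobase in WT. *Synpo2* and *Lmod1* had overlapping WT ranges on that scale, at 2.66 ± 0.896 and 2.35 ± 0.242 CPM per kilobase.

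**Figure D4:**
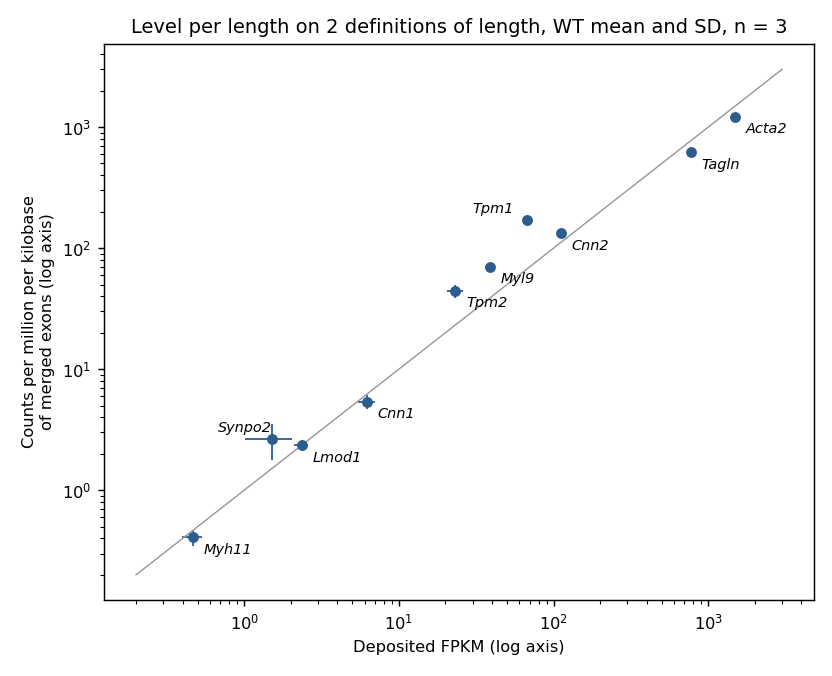
Level per length of each contractile gene in WT, with the deposited FPKM on the horizontal axis and CPM per kilobase of merged exons on the vertical axis (both log axes, mean and SD of 3 libraries); the line marks equality. *Acta2* and *Tagln* lead on both scales, and *Tpm1*, at 67.2 FPKM and 171 CPM per kilobase, is above the line.

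Other genes of the contractile apparatus were read from lists of thin filament, myosin motor and actin anchorage genes. Of 49 tested, 17 fell and 6 rose, with a median of -0.16, where 12.5% of all genes tested fell and 17.7% rose with a median of -0.02. Without KO replicate 1 or without KO replicate 3, 10 of these genes were called lower, and with fibroblast marker scaling 28 were called higher and none lower (none also at an unadjusted p under 0.05, edgeR). In the thin filament list 4 of 14 fell and 2 rose. The falls were in *Actg2* (-0.56, edgeR adjusted p = 0.0264), which encodes enteric smooth muscle γ-actin, in the calponin *Cnn3* (-0.34, adjusted p = 0.0088), in *Tpm4* (-0.28, adjusted p = 0.00133) and in *Tagln2* (-0.22, adjusted p = 0.00739). The rises were in *Svil* (0.44, adjusted p = 0.00114), encoding the membrane-linking protein supervillin, and in *Tmod3* (0.22, adjusted p = 0.00807), encoding a filament-capping tropomodulin. The call of *Actg2* was lost in 6 of 15 alternatives, among them the omission of any of 4 libraries. With fibroblast marker scaling *Actg2* was at -0.15 (adjusted p = 0.408), while *Cnn3* and *Tpm4* turned to 0.06 and 0.13 and were no longer called. *Tagln2* turned to 0.19 and was called higher (edgeR adjusted p = 0.00794).

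In the myosin motor list 4 of 13 fell and 3 rose, and its median of -0.07 was near that of all genes. *Mylk*, the kinase that phosphorylates the *Myl9* product and starts contraction, was at 34.4, 24.8 and 28.8 CPM in KO and 9.10, 9.69 and 8.82 CPM in WT. It thus rose 3.18-fold (log2 fold change 1.67, SE 0.13, edgeR adjusted p = 7.1e-05), in the opposite direction to *Acta2*, and the KO libraries followed the order of their endothelial sums of 2162, 1515 and 1770 CPM, a part in the result that was not tested. *Myl12b*, a nonmuscle regulatory light chain, rose by 0.61 (adjusted p = 5.6e-04 from edgeR) and *Rock2*, a kinase that inhibits myosin phosphatase, by 0.22 (adjusted p = 0.014), a call that was lost without WT replicate 1 (adjusted p = 0.0526) and without WT replicate 3 (adjusted p = 0.0511). Falls were found for the light chains *Myl12a* (-0.32, adjusted p = 0.00938) and *Myl6* (-0.31, adjusted p = 0.00178), the phosphatase inhibitor *Ppp1r14a* (-0.46, adjusted p = 0.044) and the nonmuscle heavy chain *Myh9* (-0.15, adjusted p = 0.0392). The call was lost in 9 of 15 alternatives for *Ppp1r14a*, DESeq2 among them (adjusted p = 0.0793), and in 8 of 15 for *Myh9* (DESeq2 adjusted p = 0.0693). With fibroblast marker scaling *Ppp1r14a* was at -0.05, and *Myl12a* and *Myl6* turned to 0.09 and 0.11. *Myh9* turned to 0.26 and was called higher (edgeR adjusted p = 0.0015), in an alternative outside those 8.

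Among the actin anchorage genes 9 of 22 fell and 1 rose, with a median of -0.21. The largest falls were in *Des* (-0.42, edgeR adjusted p = 0.00627), the muscle intermediate filament desmin, *Nexn* (-0.42, adjusted p = 0.0163), an actin-binding Z-disc protein, *Csrp2* (-0.38, adjusted p = 0.00174), a LIM protein of smooth muscle, and *Palld* (-0.35, adjusted p = 0.00752), the stress fiber protein palladin. With fibroblast marker scaling none of these calls held, with *Des* and *Nexn* both at -0.01 and *Csrp2* and *Palld* at 0.03 and 0.05, and *Nexn* also lost its call when any of 4 libraries was left out.

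Of the 10 regulators on the list 2 fell, against 12.5% of all genes tested, and their median was -0.11. *Srf* was at 53.6, 60.2 and 61.9 CPM in KO and 64.5, 63.5 and 69.6 CPM in WT, a difference that did not pass the test (-0.17, edgeR adjusted p = 0.118). Its cofactors did not pass either, with *Myocd* at 0.27 (adjusted p = 0.502), *Mrtfa* at -0.11 (adjusted p = 0.256) and *Mrtfb* at -0.10 (adjusted p = 0.666). *Gata6*, a transcription factor of smooth muscle and heart, fell by 0.45 (adjusted p = 8.5e-04), and *Tgfb1i1*, encoding the focal adhesion protein Hic-5, also fell by 0.45 (adjusted p = 0.00188). *Tead1* (-0.24, adjusted p = 0.0786), *Klf4* (0.08, adjusted p = 0.352), *Elk1* (0.03, adjusted p = 0.742) and *Smad3* (0.02, adjusted p = 0.807) did not pass the test. *Tead1* passed it in 3 of 15 alternatives, with the upper quartile, with the replicate block and without KO replicate 2. With fibroblast marker scaling *Gata6* and *Tgfb1i1* were both at -0.04 and were no longer called. The median of the 10 regulators was then 0.30, and 5 were called higher: *Srf* (0.24), *Mrtfa* (0.30), *Klf4* (0.49), *Elk1* (0.44) and *Smad3* (0.44). Of all genes tested, 8532 of 14084 were called higher under that scaling, with a median of 0.39.

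Marker lists of the cells that could contribute contractile transcripts were measured in the same libraries, and their counts stand against 12.5% of all genes lower and 17.7% higher. Of 9 mural markers tested, 4 fell and 2 rose, with a median of -0.42; their summed level was 916 to 943 CPM in KO and 1027 to 1045 CPM in WT, and the pericyte markers *Higd1b* and *Vtn* were at 0 in every library. Of 14 smooth muscle markers outside the 10 genes, 5 fell and 2 rose, with a median of -0.42, and their sum was 297 to 319 CPM in KO and 324 to 344 CPM in WT. *Actg2*, *Des*, *Mylk* and *Ppp1r14a* belong to that list as well as to those above. Of 8 markers of activated fibroblasts 5 fell (median -0.41). The medians of cardiomyocyte markers (-0.42, with 8 of 13 lower) and macrophage markers (-0.39, with 6 of 12 lower and 2 higher) were close to that of the contractile genes, while all 12 endothelial markers rose (median 2.64). The part of these cells in the contractile result was not tested.

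The genes most like *Acta2* and *Synpo2* were sought by the Euclidean distance between log2 CPM profiles over the 6 libraries, centred on the WT mean, among 9816 genes with a mean of at least 10 CPM. Among the nearest to *Acta2* were *Lzts2* (distance 0.0527) and *Cmklr1* (0.0862), and 986 genes lay within 0.3 of it. The moderate fall of *Acta2* was therefore a pattern that many genes had. No gene lay within 0.3 of *Synpo2*, a limit chosen after the distances had been seen, and the nearest were *Ctdsp2* (0.931), *Ak4* (1.22) and *Gm42715* (1.38). *Ctdsp2* was at 44.6, 52.0 and 52.4 CPM in KO and 196, 200 and 49.8 CPM in WT. *Ak4* was at 5.81, 6.30 and 8.12 CPM in KO and 39.4, 44.4 and 9.24 CPM in WT. In both, as in *Synpo2*, WT replicate 3 was the lowest WT library, and for *Ctdsp2* it was inside the KO range.

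**Figure D5:**
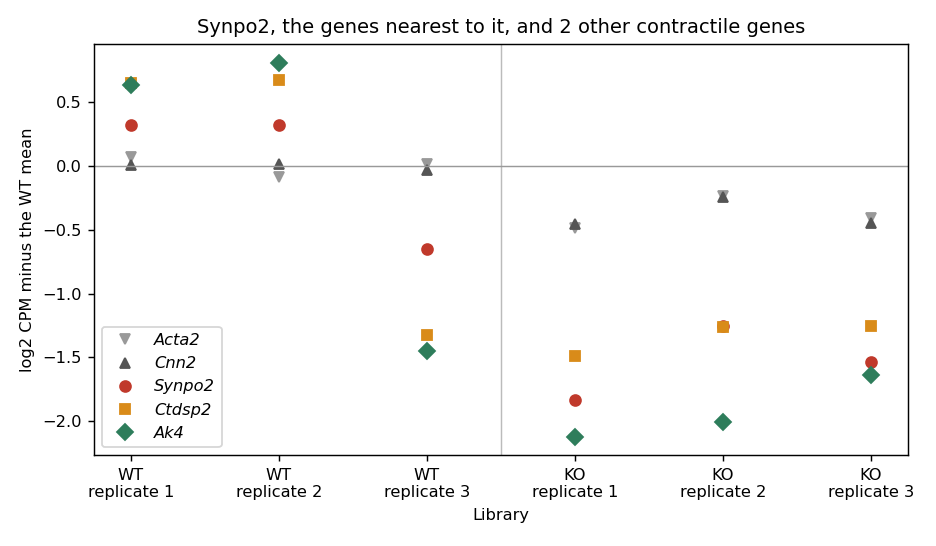
Log2 CPM minus the WT mean in each library for *Synpo2*, its nearest genes *Ctdsp2* and *Ak4*, and the contractile genes *Acta2* and *Cnn2*. WT replicate 3 is far below the other WT libraries for *Synpo2*, *Ctdsp2* and *Ak4* (21.5, 49.8 and 9.24 CPM) but not for *Acta2* and *Cnn2*.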

How the data were processed

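RNA was measured in 6 libraries, 3 KO and 3 WT, prepared with a strand-specific kit after oligo(dT) selection. HISAT2 was used by the authors to align reads to mm10, and they deposited, per gene and library, a raw count and an FPKM value, the count divided by gene length and library total; the counting tool and strand setting are not given in the sources used here. The deposited counts entered edgeR's quasi-likelihood test (version 4.0.16, R 4.3.3; TMM, no covariate, adjusted p under 0.05), in which filterByExpr kept 14084 of 20854 genes with any count. CPM values are TMM-normalized. Floors cover counting error only, and intervals the spread among 3 libraries a group. Pairs of libraries within a group differed by more than sampling noise. Ratios used FPKM and exact two-sided permutation tests (SciPy 1.17.1), adjusted over 21 ratios. Merged exon lengths came from GENCODE M21 and promoters from RefSeq. No stretch of 75 bases in the transcripts of the 10 genes recurred in other genes. The text names all 10 genes, up to 4 rises and 4 falls past the threshold per list, all regulators, *Kdm5b*, and the 3 genes nearest to *Acta2* and to *Synpo2*; *Ctdsp2* and *Ak4* are described further, and a few genes that this rule names are not reported here. *Mrtfa* and *Mrtfb* are listed under their older symbols. The genes and lists were chosen with earlier results of these data known. The tests were tested on simulated data. Alternatives were other filters, library totals, upper quartile, DESeq2 1.42.0, fibroblast marker scaling, limma 3.58.1 on log2(FPKM + 1) and log2(FPKM + 0.1), a replicate block, leaving out each library, and a fold above 2. Figures were drawn with matplotlib 3.10.9.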

Additional observations from a re-analysis of the deposited data

How the results depend on the processing

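Of 150 alternative values for the 10 genes, 133 kept direction and side of the threshold, 11 lost the call in the same direction and 6 changed direction, 3 of which (*Acta2*, *Cnn2* and *Tpm1* with fibroblast marker scaling) lost a call as well; *Synpo2* and *Lmod1* did neither. With fibroblast marker scaling 8576 genes were called (4248 otherwise), 1 of the 10 lower, and of the other contractile genes 0 lower (0 also at an unadjusted p under 0.05 by edgeR; DESeq2 with its own scaling called 14) and 28 higher. That scaling, which lifts every gene in KO, turned *Acta2* to 0.03, *Cnn2* to 0.03, *Myh11* to 0.00, *Myl9* to 0.21, *Tpm1* to 0.02, *Cnn3* to 0.06, *Tpm4* to 0.13, *Tagln2* to 0.19, *Myl12a* to 0.09, *Myl6* to 0.11, *Myh9* to 0.26, *Csrp2* to 0.03, *Palld* to 0.05, *Srf* to 0.24, *Mrtfa* to 0.30, *Mrtfb* to 0.30, *Tead1* to 0.16, *Kdm5b* to 0.19, *Lzts2* to 0.03 and *Cmklr1* to 0.02. Of the genes that this scaling turned, *Tagln2*, *Myh9*, *Srf* and *Mrtfa* were called higher. Requiring a fold above 2 left 882 genes and 1 of the 10, *Synpo2*. Without 1 library, 3152 to 4122 genes were called, 6 to 7 of the 10 lower, and 10 to 19 of the other contractile genes lower (10 without KO replicate 1 and 10 without KO replicate 3) and 5 to 6 higher. Without 1 library *Myl9* ran from -0.37 to 0.03 and *Mrtfb* from -0.20 to 0.08 (the highest without KO replicate 1), and *Smad3* from -0.02 (without WT replicate 1) to 0.07. With the upper quartile *Elk1* was -0.01 and *Smad3* -0.02. Per kilobase of merged exons, an alternative chosen after seeing the data, the log2 ratio of *Tpm1* to *Cnn2* turned from -0.73 to 0.38 in WT and from -0.74 to 0.37 in KO, and that of *Synpo2* to *Lmod1* from -0.69 to 0.12 in WT and from -1.75 to -0.94 in KO. Over the genes tested, same-numbered libraries did not deviate together (r of 0.00, 0.00 and 0.03). With 3 libraries a group this cannot exclude that the numbers pair them. The replicate block gave 3907 genes, and 6 of the 10 lower, with *Cnn1* at -0.47 (adjusted p = 0.0796, edgeR). *Myh11* had the fewest counts, 23 to 52 per library, and 3 libraries per group limit the precision of all values. The causes of these changes were not tested.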
